A study of Mus musculus with 8 samples.

Results

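The genes described here are 10 acute phase and neutrophil granule genes, Saa3, Lcn2, Slpi, Hp, S100a8, S100a9, Ngp, Camp, Ltf and Mpo, chosen by symbol from the 25124 genes of the deposited table. All 10 were found once in the table. The question addressed is how these genes respond to extracellular PRDX1 in osteoclast precursor cells, and how the genes expressed by neutrophils compare in this with the acute phase genes. The 8 RNA-seq libraries came from osteoclast precursor (OCP) cells, which are adherent macrophage-like cells grown from mouse bone marrow, first with 5 ng/ml M-CSF for 16 h and then, as the non-adherent fraction, with 30 ng/ml M-CSF for 3 days. M-CSF is the growth factor of the macrophage lineage, RANKL is the cytokine that turns these cells into osteoclasts, and PRDX1 is peroxiredoxin 1, a peroxidase that can act outside the cell as a danger signal.

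There were 4 groups of 2 libraries each, and no cells were left without M-CSF. Cells of the no PRDX1 + no RANKL group were cultured with M-CSF, those of the PRDX1 + no RANKL group also with 200 nM PRDX1, those of the no PRDX1 + RANKL group with 100 ng/ml RANKL, and those of the PRDX1 + RANKL group with both, for 48 h. The labels give C57BL/6 mice of 6 to 8 weeks, whereas the cell culture methods of the study name male ICR mice. PRDX1 was a His-tagged protein made in E. coli, from which endotoxin was removed with a resin. None of the 4 groups is described as receiving a control protein made in the same way. The paper lists M-CSF and RANKL as its own proteins without saying how they were made. The labels do not say whether the 2 libraries of a group came from separate animals or cultures, so that the p-values measure only the spread between these libraries.

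Acute phase proteins are secreted proteins whose level rises in inflammation, mostly from the liver and for some members also from macrophages and epithelia. Neutrophils store antimicrobial proteins in granules that are made in order during maturation in the marrow: primary granules, with myeloperoxidase and serine proteases, come first, and secondary granules, with lactoferrin, cathelicidin and neutrophilic granule protein, follow. S100a8 and S100a9 form calprotectin, a calcium- and metal-binding protein that fills the cytosol of neutrophils and is also made by inflammatory monocytes. Saa3, Lcn2, Slpi and Hp are known as genes that macrophages can raise in response to Toll-like receptor ligands, and Lcn2 and Hp proteins are also stored in neutrophil granules.

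The sequences just upstream of 4 of the genes are shown because Saa3, Lcn2 and Slpi moved together in these data, whereas Ngp, a gene of neutrophil granules, did not pass the test in any comparison. Each is the 250 bases before the transcription start in RefSeq (mm10, 5′ to 3′ on the strand of the gene). Capitals mark every match to TTGCNNAA, read on either strand, a loose form of the site bound by C/EBP transcription factors, which act in both acute phase and granule genes.
Saa3, chr7:46715677-46715926, minus strand: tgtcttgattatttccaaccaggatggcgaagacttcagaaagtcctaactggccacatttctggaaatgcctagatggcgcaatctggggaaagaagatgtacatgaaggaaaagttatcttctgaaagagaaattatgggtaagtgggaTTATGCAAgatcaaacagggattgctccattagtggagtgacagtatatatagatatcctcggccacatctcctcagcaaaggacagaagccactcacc
Lcn2, chr2:32387740-32387989, minus strand: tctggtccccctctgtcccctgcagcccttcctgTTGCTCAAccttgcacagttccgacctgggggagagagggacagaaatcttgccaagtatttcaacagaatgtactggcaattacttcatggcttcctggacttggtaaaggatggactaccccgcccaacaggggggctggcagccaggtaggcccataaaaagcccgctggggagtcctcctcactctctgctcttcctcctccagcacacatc
Slpi, chr2:164356508-164356757, minus strand: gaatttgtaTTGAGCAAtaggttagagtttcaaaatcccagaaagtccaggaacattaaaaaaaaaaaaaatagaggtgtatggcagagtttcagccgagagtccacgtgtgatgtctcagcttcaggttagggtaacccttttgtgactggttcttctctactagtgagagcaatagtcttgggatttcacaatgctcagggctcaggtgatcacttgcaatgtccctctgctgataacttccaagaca
Ngp, chr9:110419558-110419807, plus strand: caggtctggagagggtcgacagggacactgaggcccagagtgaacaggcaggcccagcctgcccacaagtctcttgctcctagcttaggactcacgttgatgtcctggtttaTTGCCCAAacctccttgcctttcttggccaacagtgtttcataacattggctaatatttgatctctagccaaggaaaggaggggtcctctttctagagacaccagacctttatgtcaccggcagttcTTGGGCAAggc

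Promoters were found for 9 of the 10 genes, all but Hp. The κB consensus, the site of NF-κB, was searched on both strands and matched 0 of the 9 against 7.80% of the 18344 promoters of the same length. The C/EBP core TTNCGNAA matched 0 of the 9 against 2.32% of all promoters. Since these windows end at the start site, a match further away would not be seen. The loose form TTGCNNAA was added after both of these had given no match and after the letters of the promoters had been read, so that its 6 matching genes, Saa3, Lcn2, Slpi, S100a9, Ngp and Ltf, against 9.06% of all promoters, are a description that supports nothing. In Saa3 the match lay 99 to 92 bases before the start, and Ngp had 2 matches. All the sequences shown hold a match, whereas S100a8, which rose with PRDX1 like Saa3, Lcn2 and Slpi, had none, nor had Camp and Mpo.

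In units of FPKM, which are comparable between genes because they are divided by transcript length, Saa3 had the highest mean over the 8 libraries (34.3), followed by S100a8 (11.9), S100a9 (11.0) and Slpi (8.14). Lcn2 (1.72), Mpo (0.980), Ngp (0.754) and Hp (0.706) lay near 1, and Camp (0.235) and Ltf (0.150) were close to the limit of detection. Saa3 stood at rank 2394 of all genes by this mean, whereas Lyz2, a lysozyme gene of macrophages and granulocytes, lay between 8326 and 14982 FPKM in the same libraries. Genes with a mean of at least 0.5 FPKM were tested with limma on log2(FPKM + 1), which was passed by 8 of the 10 genes, and Camp and Ltf are described by their values. Changes on this scale understate the fold of genes near 1 FPKM, so ratios of group mean FPKM with and without PRDX1 are given for the 10 genes. A gene is said to have risen or fallen where the Benjamini-Hochberg adjusted p over all 11700 genes was under 0.05 and the fold change at least 1.5.

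**Figure D1:**
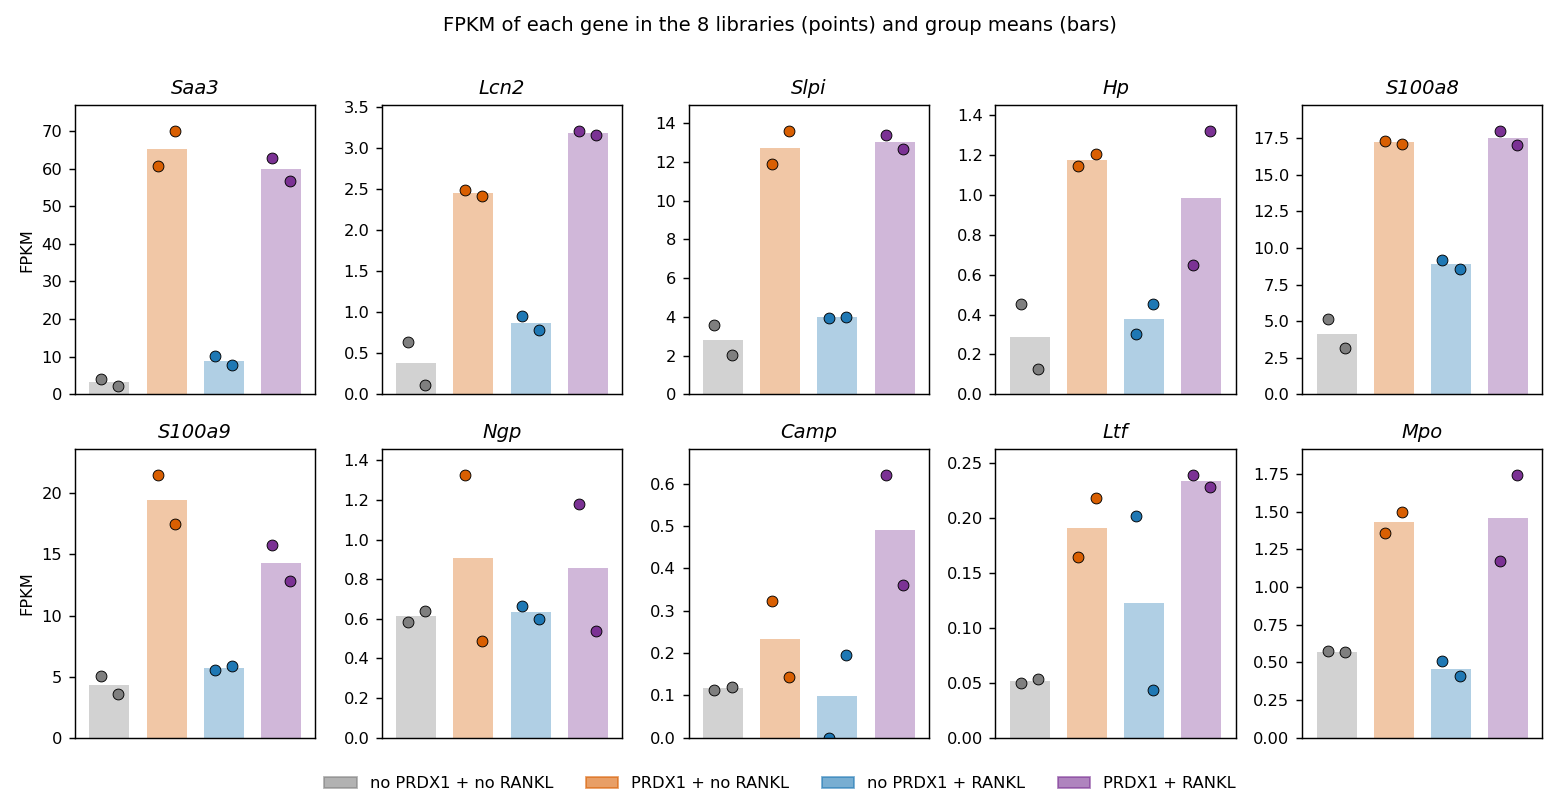
FPKM of the 10 genes, each with its own axis from 0; points are the 8 libraries and bars are the means of the 2 libraries of a group. The libraries with PRDX1 lie above all those without for Saa3, Lcn2, Slpi, Hp, S100a8, S100a9 and Mpo, and overlap with them for Ngp, Camp and Ltf; 5.42% of the genes listed above 0 have all PRDX1 libraries above the others.

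All 4 acute phase genes rose with PRDX1 in cells without RANKL, where 5.79% of all genes passed the same test in either direction, and 3 of the 4 rose in cells with RANKL, against 10.2% of all genes. One of the 4, Hp, entered the test only through its libraries with PRDX1, and the other 3 rose in both. Saa3 had the largest log2 change of the 8 genes tested. Saa3 encodes serum amyloid A3, the form of serum amyloid A that mouse macrophages make, and lies at chr7:46711998-46715676 on the minus strand. It was at 3.99 and 2.33 FPKM in the no PRDX1 + no RANKL libraries and at 60.8 and 69.9 in those with PRDX1, and at 10.1 and 7.72 in the no PRDX1 + RANKL libraries and 62.8 and 56.8 in those with both. The PRDX1 libraries were thus far above the others, and those with and without RANKL overlapped under PRDX1. The change by PRDX1 was 4.02 ± 0.17 on the log2 scale without RANKL (SE, adjusted p = 2.18e-07 with limma) and 2.63 ± 0.17 in its presence (adjusted p = 1.61e-06), and the ratios of mean FPKM were 20.7 and 6.73. Saa1, Saa2 and Saa4, the other genes of the family, were listed at 0 in all 8 libraries.

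Lcn2 encodes lipocalin 2, which withholds iron from bacteria by binding their siderophores (chr2:32384637-32387739, minus strand). Its FPKM was 0.639 and 0.113 without either protein, 2.49 and 2.41 with PRDX1, 0.954 and 0.788 with RANKL, and 3.20 and 3.16 with both. The lowest of these values rests on 4 reads and the highest on 125. With PRDX1 the log2 change was 1.35 ± 0.16 without RANKL (adjusted p = 1.66e-04) and 1.16 ± 0.16 in its presence (adjusted p = 2.41e-04, limma), and the mean FPKM rose to 6.52 and 3.65 times its level without PRDX1. The first of these ratios was 21.7 without the first no PRDX1 + no RANKL library and 3.84 without the second.

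Slpi, on the same chromosome (chr2:164354070-164356507, minus strand), encodes secretory leukocyte protease inhibitor, an inhibitor of neutrophil elastase and cathepsin G that macrophages also make after contact with lipopolysaccharide. In FPKM it was at 3.57 and 2.01 without either protein, 11.9 and 13.6 with PRDX1, 3.96 and 3.99 with RANKL, and 13.4 and 12.7 with both. All libraries with PRDX1 were above all those without, and the 2 PRDX1 groups overlapped. Its log2 change was 1.89 ± 0.16 without RANKL (adjusted p = 1.81e-05) and 1.5 ± 0.16 in its presence (adjusted p = 4.20e-05, limma), and the ratios of mean FPKM were 4.57 and 3.28. The exons of Slpi overlap the microRNA gene Mir7678 on the same strand, whose reads cannot be told apart from those of Slpi in this table.

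Hp encodes haptoglobin, which binds free haemoglobin (chr8:109575128-109579172, minus strand). The 8 values were 0.454 and 0.125 FPKM without either protein, 1.14 and 1.21 with PRDX1, 0.301 and 0.454 with RANKL, and 0.647 and 1.32 with both. The PRDX1 libraries were above the rest, and the gene passed the filter on low values only through them, since the libraries without PRDX1 averaged 0.334 FPKM. Hp rose by 0.77 ± 0.18 on the log2 scale without RANKL (adjusted p = 0.00895), and without the second no PRDX1 + no RANKL library, which had the lowest value, the change was 0.58 (adjusted p = 0.0698, limma). With RANKL it was 0.51 ± 0.18 (adjusted p = 0.0409), under the fold threshold, and leaving out the first PRDX1 + RANKL library brought it past the threshold at 0.75 (adjusted p = 0.0108), as did limma's voom, a fit of the reads recovered from the FPKM values (1.24, adjusted p = 0.0290). The ratios of mean FPKM of Hp were 4.06 without RANKL, with 2.59 to 9.40 when 1 library was left out, and 2.60 with RANKL, with 1.71 to 3.49.

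Both calprotectin genes rose with PRDX1, with and without RANKL. They lie 22595 bases apart on chromosome 3, S100a8 at chr3:90669071-90670034 on the plus strand and S100a9 at chr3:90692630-90695721 on the minus strand. S100a8 was at 5.15 and 3.15 FPKM without either protein, 17.3 and 17.1 with PRDX1, 9.19 and 8.60 with RANKL, and 18.0 and 17.1 with both. S100a9 had 5.07 and 3.55, 21.5 and 17.5, 5.58 and 5.91, and 15.8 and 12.8 FPKM in the same order of groups. For S100a8 the log2 change by PRDX1 was 1.85 ± 0.14 without RANKL (adjusted p = 1.16e-05) and 0.90 ± 0.14 in its presence (adjusted p = 6.54e-04, limma). The corresponding changes of S100a9 were 1.96 ± 0.15 (adjusted p = 8.80e-06) and 1.18 ± 0.15 (adjusted p = 1.30e-04). The mean FPKM of S100a8 became 4.15 and 1.97 times as high, and that of S100a9 4.52 and 2.49 times as high, without and with RANKL.

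Of the secondary granule genes only Ngp was tested, and it did not pass with PRDX1. Ngp encodes neutrophilic granule protein, a cathelicidin-related protein, and with Camp and Ltf it lies in a stretch of 1195 kb on chromosome 9 (chr9:110419808-110423012, plus strand). Its FPKM was 0.585 and 0.642 without either protein, 1.33 and 0.490 with PRDX1, 0.666 and 0.601 with RANKL, and 1.18 and 0.537 with both. In each PRDX1 group 1 library was above and the other below all 4 libraries without PRDX1. The log2 change was 0.21 ± 0.21 without RANKL (adjusted p = 0.510) and 0.16 ± 0.21 in its presence (adjusted p = 0.565, limma), and it turned to -0.11 and -0.09 when the first PRDX1 + no RANKL library or the first PRDX1 + RANKL library was left out. Its ratios of mean FPKM were 1.48 and 1.36, and 0.799 and 0.848 without these libraries.

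Camp encodes the cathelicidin antimicrobial peptide (chr9:109847377-109849456, minus strand) and Ltf encodes lactoferrin, which binds iron (chr9:111019292-111042766, plus strand). Reads for Camp numbered 2 and 3 without either protein, 6 and 3 with PRDX1, 0 and 4 with RANKL, and 17 and 9 with both. A count of 0 in the first no PRDX1 + RANKL library allows up to 0.185 FPKM, with 3 reads as the limit, and these limits cover counting error only. Ltf had 4 and 6, 14 and 21, 15 and 4, and 30 and 26 reads in the same order of groups, which is 0.05 and 0.053, 0.164 and 0.218, 0.202 and 0.0430, and 0.239 and 0.228 FPKM. Both genes were highest in the PRDX1 + RANKL libraries, while their other groups overlapped in part. The ratios of mean FPKM by PRDX1, without and with RANKL, were 1.98 and 5.04 for Camp and 3.71 and 1.91 for Ltf. These rest on few reads. With 1 library left out, that of Camp without RANKL was 1.22 to 2.75 and that of Ltf with RANKL 1.16 to 5.43. With the filter removed, the log2 change of Camp by PRDX1 with RANKL was 0.44 (adjusted p = 0.0394, limma), under the fold threshold. With the reads recovered from the table and voom weights, an alternative chosen after seeing the data, it was 2.52 (adjusted p = 0.0265). Without RANKL the change of Camp was 0.14 by limma (adjusted p = 0.536) and 0.75 by voom (adjusted p = 0.606). By voom the changes of Ltf were 1.79 in cells without RANKL (adjusted p = 0.0612) and 1.31 in those with it (adjusted p = 0.0974).

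Mpo encodes myeloperoxidase, the enzyme of primary granules that makes hypochlorous acid (chr11:87793784-87804412, plus strand). It was at 0.574 and 0.568 FPKM without either protein, 1.36 and 1.5 with PRDX1, 0.507 and 0.412 with RANKL, and 1.17 and 1.74 with both, from 35 to 185 reads. All libraries with PRDX1 were above all those without, and those with RANKL lay below those with neither protein. The log2 change by PRDX1 was 0.63 ± 0.13 without RANKL (adjusted p = 0.00438) and 0.74 ± 0.13 in its presence (adjusted p = 9.78e-04, limma), with ratios of mean FPKM of 2.51 and 3.17. Both calls lie close to the fold threshold: under quantile normalization the change without RANKL was 0.57 (adjusted p = 0.00909), and without the second PRDX1 + RANKL library that with RANKL was 0.57 (adjusted p = 0.0117), each just under it. Mpo shares exon bases with the antisense gene Gm11505, and since reads were counted on both strands the 2 genes cannot be told apart here.

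**Figure D2:**
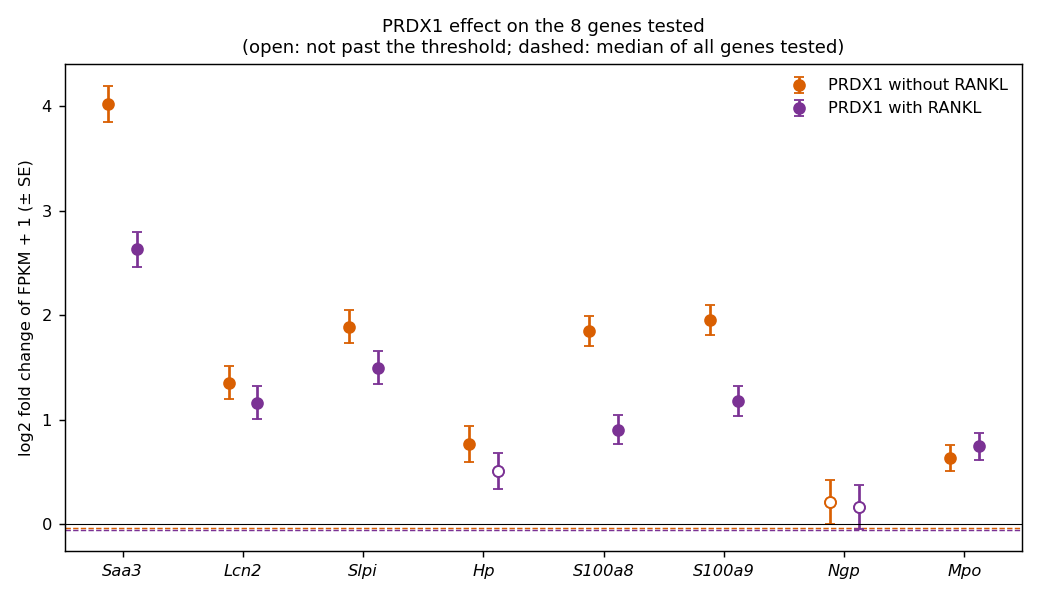
Log2 fold change of FPKM + 1 by PRDX1 (vertical axis, ± SE) for the 8 genes tested, without RANKL (orange) and with RANKL (purple). Filled points passed the threshold and open points did not; Saa3 stands highest at 4.02 and 2.63, Ngp lies within 1 SE of 0, and the dashed lines at -0.04 and -0.06 are the medians of all genes tested.

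Counted together, 7 of the 8 genes tested rose with PRDX1 without RANKL, against 5.79% of all genes, and 6 of the 8 with RANKL, against 10.2%. Hp is among the 7 although only its PRDX1 libraries brought it into the test, and with Hp set aside 6 of 7 rose in each setting. The median log2 changes of the 8 genes, Hp included, were 1.60 and 1.03, and those of all genes tested -0.04 and -0.06. These 2 comparisons use separate libraries. Over all 10 genes, 7 were higher in each of the 4 libraries with PRDX1 than in each of the 4 without, which held for 5.42% of the 17377 genes listed above 0 in any library. The genes were chosen with earlier results of these data known, and the paper had picked Saa3 from its own comparison of PRDX1 without RANKL. The counts therefore describe these genes and do not test their class. Since these are RNA levels of whole cultures, more cells of a type and more RNA per cell cannot be told apart.

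RANKL alone raised Saa3 and S100a8. Saa3 rose by 1.27 ± 0.17 on the log2 scale (adjusted p = 1.14e-04) and S100a8 by 0.97 ± 0.14 (adjusted p = 2.19e-04, limma), so that 2 of 8 passed, against 21.8% of all genes. Lcn2 (0.47 ± 0.16, adjusted p = 0.0265) and Slpi (0.42 ± 0.16, adjusted p = 0.0398) stayed under the fold threshold on the FPKM + 1 scale. Without the first no PRDX1 + no RANKL library they passed it at 0.75 and 0.73, and voom on the recovered reads called both, at 1.74 (adjusted p = 0.00773) and 0.64 (adjusted p = 0.0321). A pseudocount of 0.1 also called Lcn2, at 1.29 (adjusted p = 0.0311). S100a9 had a change of 0.36 ± 0.15 (adjusted p = 0.0551), so that the 2 calprotectin genes were called differently, but whether their changes differed was not tested. In cells with PRDX1, RANKL changed 0 of the 8 genes in the limma test, against 8.50% of all genes, and 1 of them had an unadjusted p under 0.05. That gene was S100a9, at -0.42 ± 0.15 (adjusted p = 0.0419, under the fold threshold), and the voom fit on recovered reads called 0 as well. The comparisons of PRDX1 and of RANKL without the other protein share the no PRDX1 + no RANKL libraries, of which the second had lower values than the first for Saa3, Lcn2, Slpi, Hp, S100a8 and S100a9.

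The PRDX1 effect was smaller with RANKL than without for 3 of the 8 genes in the test of the interaction, against 8.85% of all genes that passed it in either direction. The differences were -1.39 ± 0.24 for Saa3 (adjusted p = 0.00252), -0.95 ± 0.20 for S100a8 (adjusted p = 0.00800) and -0.78 ± 0.21 for S100a9 (adjusted p = 0.0216, limma). In each of them RANKL alone had the higher mean of the 2 groups without PRDX1, whereas between the 2 PRDX1 groups the log2 change by RANKL was -0.12 ± 0.17 for Saa3, 0.02 ± 0.14 for S100a8 and -0.42 ± 0.15 for S100a9. With the filter on low values removed, S100a8 (adjusted p = 0.0532) and S100a9 (adjusted p = 0.0956) lost this call. The value of S100a9 also lost it without the second no PRDX1 + no RANKL library (-0.57), the first PRDX1 + no RANKL library (-0.64), the second no PRDX1 + RANKL library (-0.74) or the second PRDX1 + RANKL library (-0.64). For Slpi the difference was -0.39 ± 0.22 (adjusted p = 0.249), and it became -0.69 (adjusted p = 0.00650) without the first no PRDX1 + no RANKL library. Lcn2 (-0.19 ± 0.22), Hp (-0.26 ± 0.25), Ngp (-0.04 ± 0.30) and Mpo (0.11 ± 0.18) did not pass.

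Within single libraries the genes did not keep a fixed proportion to each other. The ratio of Saa3 to Slpi was 1.12 and 1.16 without either protein, 5.10 and 5.15 with PRDX1, 2.54 and 1.93 with RANKL, and 4.69 and 4.47 with both. Against Mpo, the ratio of Saa3 was 6.95 and 4.09, 44.7 and 46.6, 19.8 and 18.7, and 53.5 and 32.6 in the same order of groups. The groups with and without PRDX1 did not overlap in either ratio. The ratio of S100a9 to Mpo was 8.84 and 6.25 without either protein, 15.8 and 11.6 with PRDX1, 11.0 and 14.3 with RANKL, and 13.4 and 7.35 with both. It was thus higher with PRDX1 in cells without RANKL, and overlapped in cells with RANKL. The ratio of S100a8 to Mpo was 8.97 and 5.55, 12.7 and 11.4, 18.1 and 20.9, and 15.3 and 9.79 in the same order, so that it was higher with PRDX1 in cells without RANKL and lower with PRDX1 in those with it, with no overlap in either. S100a8 to Ngp was higher with PRDX1 in both settings, at 8.80 and 4.91 against 13.1 and 34.9 without RANKL and at 13.8 and 14.3 against 15.2 and 31.8 with it. The ratio of S100a8 to S100a9 was 0.888 to 1.01 without either protein, 0.805 to 0.981 with PRDX1, 1.45 to 1.65 with RANKL and 1.14 to 1.33 with both, so that it was higher in every library with RANKL than in any without. These ratios are descriptions, with no test.

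**Figure D3:**
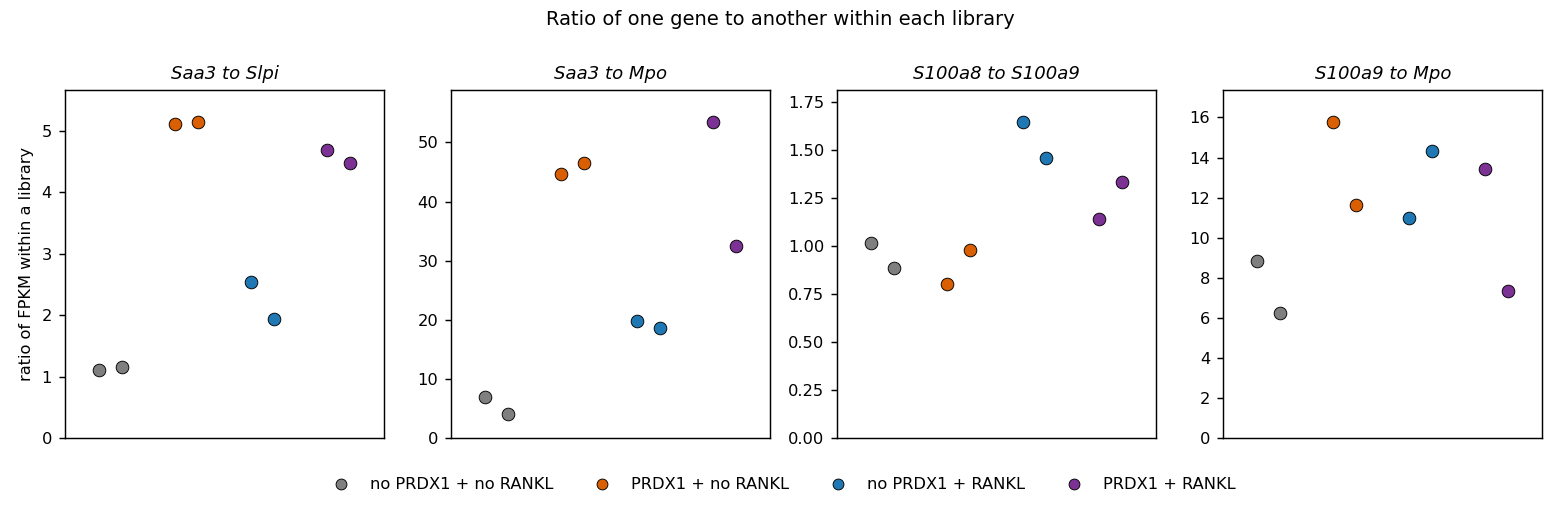
Ratio of the FPKM of one gene to that of another within each of the 8 libraries (points), in 4 panels with axes from 0. Saa3 to Slpi and Saa3 to Mpo are higher in the PRDX1 libraries, S100a8 to S100a9 is highest with RANKL alone (1.45 and 1.65), and S100a9 to Mpo is higher with PRDX1 in cells without RANKL and overlaps in those with it.

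The genes whose pattern over the 8 libraries was most like that of Saa3, by Pearson's r of log2(FPKM + 1) among 11699 genes, were Marco (0.992), Cfb (0.992), B2m (0.991), Gm21188 (0.991) and Slpi (0.990). The libraries fall into 4 groups, so that these values describe group means more than single libraries. Marco, a scavenger receptor of macrophages, had means of 6.31 ± 0.17, 33.5 ± 1.37, 9.12 ± 0.76 and 32.8 ± 0.24 FPKM (SD, n = 2) in no PRDX1 + no RANKL, PRDX1 + no RANKL, no PRDX1 + RANKL and PRDX1 + RANKL. B2m, the light chain of MHC class I molecules, had 1759 ± 64.6, 3236 ± 19.96, 2086 ± 49.9 and 3459 ± 51.2 FPKM. Gm21188, a predicted gene, had 10.9 ± 0.37, 24.6 ± 0.02, 14.8 ± 0.74 and 24.6 ± 0.29 FPKM.

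Of 24 other acute phase genes, 13 were listed above 0 in at least 1 library and 7 passed the filter. The 11 listed at 0 in all libraries included Saa1, Saa2, the fibrinogen genes Fga, Fgb and Fgg, and Crp. Without RANKL 3 of the 7 rose with PRDX1, namely Cfb (complement factor B, 4.27 ± 0.08), Il1rn (the interleukin 1 receptor antagonist, 1.62 ± 0.06) and C3 (complement component 3, 1.41 ± 0.07). With RANKL the same 3 genes rose by 3.09, 0.70 and 0.86 on the log2 scale, and Steap4, a metalloreductase gene, fell by 1.78. The means of Steap4 were 2.78 and 0.099 FPKM there, a ratio of 0.0356, and 0.0215 and 0.0385 without RANKL. Cfb went from 1.49 and 1.42 to 46.7 and 46.2 FPKM with PRDX1, a larger ratio of means (31.9) than that of Saa3. The median log2 change of the 7 was 0.02 without and 0.39 with RANKL.

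Among 17 regulators of these genes, of which 14 were tested, 4 rose with PRDX1 in each setting and 0 fell by the limma test (9 and 7 had an unadjusted p under 0.05 in either direction, and voom called 4 and 5). Tnf, an inflammatory cytokine, rose by 0.81 without and 1.27 with RANKL, and Il1b, which entered the test only through its libraries with PRDX1, by 1.0 and 0.99, from 0.05 and 0.054 FPKM to 0.858 and 1.38 without RANKL. Cebpb, a C/EBP factor of macrophages, rose by 0.68 and 0.63. Socs3, an inhibitor of cytokine signalling, rose without RANKL (0.85), and Nfkbiz, a nuclear cofactor needed for Lcn2 in macrophages, with RANKL (0.99). The 17 genes for receptors of the member proteins were also measured: of 14 tested, 2 rose and 1 fell without RANKL, and 6 rose with RANKL. Fpr1 (2.08 and 2.34) and Fpr2 (1.34 and 1.64), formyl peptide receptors of which Fpr2 binds serum amyloid A and cathelicidin, rose in both. Cd36, a scavenger receptor, rose with PRDX1 in cells with RANKL (1.61). Its means were 564 and 727 FPKM without RANKL, without and with PRDX1, and 72.8 and 223 with RANKL. Cd163, the receptor for haptoglobin bound to haemoglobin, fell by 1.37 without RANKL from 5.69 and 5.60 to 1.56 and 1.60 FPKM.

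Other genes of primary granules were as low as Mpo. Of 6 other primary granule genes 3 were tested, Elane, Prtn3 and Ctsg. All 3 entered the test only through their libraries with PRDX1, since those without averaged 0.327, 0.477 and 0.286 FPKM, so that their number is no support for a rise of the group. Each rose with PRDX1 without RANKL, Elane (neutrophil elastase, 0.83, adjusted p = 0.0214), Prtn3 (proteinase 3, 0.61, adjusted p = 0.0119) and Ctsg (cathepsin G, 0.63, adjusted p = 0.00368). With RANKL Prtn3 rose (0.67, adjusted p = 0.00444), and Elane (0.45) and Ctsg (0.33) did not pass. Ctsg was called there with a pseudocount of 0.1 (0.95, adjusted p = 0.0297) and by voom (1.16, adjusted p = 0.0497). These calls rest on few reads, 2 to 60 per library and gene. Under quantile normalization the changes of Prtn3 (0.54) and Ctsg (0.53) without RANKL fell under the fold threshold, and with the filter removed Elane had an adjusted p of 0.0845. Elane and Prtn3 also lost their calls without the second no PRDX1 + no RANKL library (0.54 and 0.54) or the second PRDX1 + no RANKL library (0.64 and 0.54). Ctsg did so without the first PRDX1 + no RANKL library (0.51), and Prtn3 with RANKL without the second no PRDX1 + RANKL library (0.45). The summed FPKM of the 6 genes was 1.21 to 1.83 without either protein, 3.69 to 4.12 with PRDX1, 0.810 to 1.53 with RANKL and 2.68 to 3.56 with both, and the ratio of the summed means was 2.57 without and 2.66 with RANKL, beside 2.51 and 3.17 for Mpo. Of the 3 genes under the filter, Prss57, a serine protease, had means of 0.303 FPKM without either protein, 0.08 with PRDX1, 0.0770 with RANKL and 0.148 with both, so that without RANKL its level was lower in the PRDX1 libraries than in the others. Ms4a3 was at most 0.334 FPKM and Bpi at most 0.0420.

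The list of 11 other secondary and tertiary granule genes holds several that macrophages or osteoclasts also express, namely Lyz2, Cybb, Mmp8 and Mmp9, and 5 were tested. Without RANKL 1 rose with PRDX1, Chil3 (a chitinase-like protein, 0.81, at 2.06 and 2.42 FPKM without PRDX1 and 4.68 and 4.66 with it), and Mmp9 was called as well with a pseudocount of 0.1 (1.12), by voom (1.25) and without the second no PRDX1 + no RANKL library (0.62). With RANKL Chil3 (0.82), Mmp8 (neutrophil collagenase, 1.30) and Cybb (a subunit of the phagocyte NADPH oxidase, 0.92) rose and Mmp9, also an osteoclast gene, fell by 3.43. RANKL alone raised Mmp9 and lowered Mmp8, Cybb and Lyz2. The means of Mmp8 and Cybb were 11.1 and 192 FPKM without either protein and 2.99 and 87.5 with RANKL. With both proteins they were 8.74 and 167. Of the 6 genes under the filter, Fcnb, Olfm4, Itgb2l and Cd177, which are more restricted to granulocytes, were at most 0.142 FPKM in every library. Chil1, another chitinase-like protein, had means of 0.142 and 0.449 FPKM without and with PRDX1 in cells without RANKL, and 0.219 and 0.603 in cells with RANKL, with no overlap of the 2 groups in either setting. Pglyrp1, a peptidoglycan recognition protein of granules, went from 0.0355 to 0.335 FPKM with PRDX1 without RANKL, and was at 0.260 and 0.239 with RANKL.

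Markers of mature neutrophils differed in level. Of the 13 genes on the list 12 were found in the table, and BC100530 was not analysed here. Stfa1, Stfa2 and Stfa3 were listed at 0 in all libraries, Cxcr1, Padi4 and Wfdc21 were at most 0.114, 0.05 and 0.25 FPKM, and Stfa2l1 had means of 0, 0.511, 0.269 and 0.434 FPKM without either protein, with PRDX1, with RANKL and with both, from at most 12 reads. Ly6g, the surface marker of mouse neutrophils, had 0.0740 and 0.0520 FPKM without either protein, 0.279 and 0.186 with PRDX1, 0 and 0.190 with RANKL, and 0.0710 and 0.0520 with both, from at most 8 reads. Cxcr2, a chemokine receptor of neutrophils, had 0.156 and 0.0390, 0.955 and 0.559, 0.121 and 0.209, and 0.649 and 0.643 FPKM in the same order of groups and lay under the filter, with the PRDX1 libraries above all others. Of the 3 genes tested, Csf3r, the receptor for G-CSF, rose by 0.82 without RANKL and 1.0 with RANKL. Its means were 2.23 and 4.72 FPKM without and with PRDX1 in cells without RANKL, and 0.4555 and 1.90 in those with it. Mcemp1, a membrane protein of mast cells and other myeloid cells, had the highest level of the list with RANKL, with means of 2.26, 3.59, 6.69 and 8.36 FPKM in the same order of groups. Its changes by PRDX1 of 0.50 (adjusted p = 0.00380) and 0.28 (adjusted p = 0.0390, limma) were under the fold threshold. Voom called 2 of the 3 genes without RANKL, Csf3r and Mcemp1. Retnlg, a resistin-like gene of neutrophils, had changes of 0.15 (adjusted p = 0.678) and -0.17 (adjusted p = 0.596). With RANKL its change became a call of a fall without the second no PRDX1 + RANKL library (-0.62, adjusted p = 0.0149) and was 0.28 without the first. Summed over the list, FPKM was 4.62 to 5.60 without either protein, 10.5 to 10.6 with PRDX1, 8.11 to 9.38 with RANKL and 11.9 to 12.8 with both, and Csf3r and Mcemp1 held 78.9% to 87.8% of the group sums. Of 5 granulocyte transcription factors 4 were tested, and Cebpa, which macrophages also express, rose by 0.81 and 0.88 with PRDX1. Cebpe, the factor of secondary granule genes, had changes of -0.21 (adjusted p = 0.301) and -0.06 (adjusted p = 0.777).

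Markers of further cell types moved in part with PRDX1 as well. Of 8 stromal cell markers 6 were tested, and Bgn (0.74 and 1.07), Col1a2 (0.88 and 0.90), Sparc (0.65 and 0.85) and Col1a1 (0.63 and 0.79), matrix proteins of fibroblasts and bone, rose without and with RANKL. Without the first no PRDX1 + no RANKL library the changes of Sparc (0.52) and Col1a1 (0.48) no longer passed, nor did that of Col1a1 without the second PRDX1 + no RANKL library (0.60) or with the filter removed (adjusted p = 0.0654). The summed FPKM of the 8 was 16.9 to 21.1 without either protein, 33.8 to 33.9 with PRDX1, 15.8 to 18.2 with RANKL and 30.8 to 38.9 with both. The 6 B cell markers in the table were all under the filter, with summed FPKM of 0.671 to 1.09, 1.59 to 2.18, 0.730 to 0.922 and 1.46 to 1.65 in the same order. Over the same groups the 8 T and NK cell markers summed to 0.417 to 0.844, 0.956 to 1.01, 0.752 to 1.01 and 1.28 to 1.48 FPKM, with Cd3e, Ncr1 and Gzma listed at 0, and the ratio of their summed means of 1.56 without RANKL was 2.35 without the second no PRDX1 + no RANKL library. The part of such minor cells in the levels of the 10 genes was not tested.

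Dendritic cell markers had 3 of 4 tested genes rising without RANKL, Itgax (1.23), Ccr7 (0.91) and Siglech (0.67), and 2 with RANKL, Itgax (0.81) and Ccr7 (0.99). The means of Ccr7 were 0.06 and 0.9965 FPKM without and with PRDX1 in cells without RANKL, and 0.6805 and 2.34 in those with it. The fourth gene tested, Cd209a, a lectin, had a change of -0.49 without RANKL (adjusted p = 0.0316, limma), under the fold threshold, with means of 1.25 and 0.602 FPKM. With RANKL its change was -0.08 (adjusted p = 0.706). Voom called all 4 genes without RANKL, Cd209a among them. Ccr7 entered the test only through its libraries with PRDX1, and Siglech lost its call without the first PRDX1 + no RANKL library (0.53). With RANKL Siglech was called with a pseudocount of 0.1 (0.85) and by voom (0.89). The 1 eosinophil marker tested, Ccr3, rose by 1.94 without RANKL and fell by 0.61 with RANKL. The fall was not called under upper quartile scaling (-0.55) or without the first PRDX1 + RANKL library (-0.53). Siglecf, a surface receptor of eosinophils and some macrophages, was under the filter, with means of 0.0945 and 0.587 FPKM without and with PRDX1 in cells without RANKL and 0.228 and 0.829 in those with it, and its PRDX1 libraries were above all others. Prg2, Epx and Ear1 were at most 0.0520 FPKM. Basophil and mast cell markers (8 genes, at most 0.344 FPKM summed) and erythroid markers (8 genes, at most 0.495) were near 0. Of 3 platelet markers tested, which macrophages share in part, Pf4 (2.59, from 40.9 to 251.7 FPKM) and Ppbp (0.96) rose with PRDX1 in cells with RANKL. In cells without RANKL 0 passed (2 at an unadjusted p under 0.05, voom 0). RANKL alone lowered all 3, against 21.8% of all genes that passed in either direction. Without RANKL the means of Pf4 were 631 and 786 FPKM, without and with PRDX1.

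The cells carried the markers of macrophages. All 10 macrophage markers were tested, with summed FPKM of 16438 to 18265 without either protein and 17288 to 17760 with PRDX1. PRDX1 changed 0 of them without RANKL (limma, 6 at an unadjusted p under 0.05, voom 0) and raised 7 with RANKL, among them Fcgr1 (2.46), C1qa (1.74), C1qb (1.70) and C1qc (1.58). RANKL alone lowered 9 of the 10, against 21.8% of all genes that passed in either direction, and in cells with PRDX1 it lowered 6, against 8.50%. C1qa had means of 480 and 495 FPKM without RANKL, without and with PRDX1, and 47.7 and 161 with RANKL. Those of Fcgr1 were 113 and 162, and 8.49 and 51.3. In both genes the cells with PRDX1 and RANKL thus stayed below those without RANKL. The ratios of the summed means of the 10 markers, PRDX1 over no PRDX1, were 1.01 without and 1.37 with RANKL. Lyz2, which did not pass (0.43 with RANKL), held 80.2% to 87.1% of these sums. The median log2 changes of the 10 by PRDX1 were 0.14 and 1.06. The osteoclast markers Ctsk (-4.19), Mmp9 (-3.43), Oscar (-3.05) and Ocstamp (-2.90) fell with PRDX1 in the presence of RANKL, as did all 7 tested of 8, and 3 of the 7 rose without it. Beside these, the ratios of the summed means without and with RANKL were 12.4 and 5.46 for Saa3, Lcn2, Slpi and Hp, 4.34 and 2.17 for S100a8 and S100a9, and 1.70 and 1.86 for Ngp, Camp and Ltf. Saa3 held 47.7% of the first of these sums without either protein, 80.0% with PRDX1, 63.0% with RANKL and 77.6% with both. Lcn2, Slpi and Hp alone had ratios of 4.74 and 3.29, of which the first was 7.29 without the first no PRDX1 + no RANKL library. The ratio of 1.70 for Ngp, Camp and Ltf was 1.09 without the first PRDX1 + no RANKL library. Ngp held most of their sum, with a mean of 0.614 FPKM without either protein, where the sum was 0.749 to 0.816. The ratios of Camp and Ltf alone were higher, as given above.

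**Figure D4:**
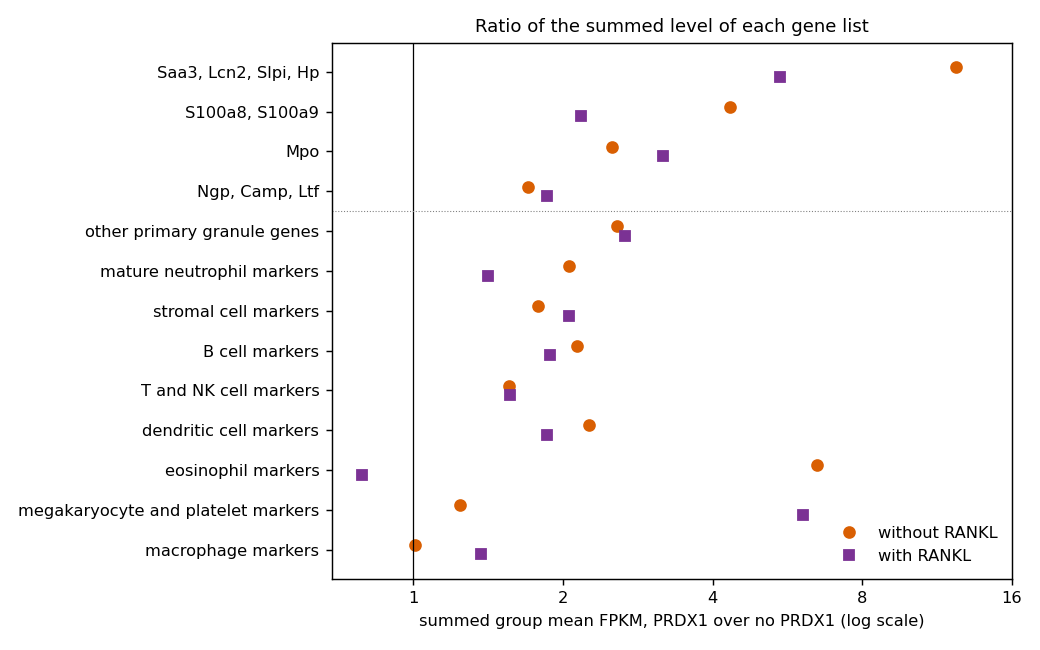
Summed group mean FPKM with PRDX1 divided by that without (horizontal axis, log scale), for 13 gene lists, in cells without RANKL (circles) and with RANKL (squares); the 10 genes are above the dotted line. Of the lists shown, that of Saa3, Lcn2, Slpi and Hp has the highest ratio without RANKL (12.4); with RANKL (5.46) it lies below the platelet markers (6.07), whose sum is nearly all Pf4. Most of the sum of the eosinophil markers (6.48 and 0.788) is Ccr3. Ngp, Camp and Ltf (1.70 and 1.86, the first being 1.09 without 1 library) lie just under the stromal (1.78 and 2.05) and B cell markers (2.14 and 1.88). Most of their sum is Ngp. Mpo (2.51 and 3.17) lies beside the other primary granule genes without RANKL (2.57) and above them with it (2.66).

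The 8 libraries held 24542578 to 41712973 reads on genes, so that 3 reads stand for 0.0650 to 0.110 FPKM for a transcript of 1 kb. The 10 most abundant genes took 4.75% to 9.69% of these reads. No pair of libraries agreed within sampling noise, with chi-square values of 4.59 to 9.19 per degree of freedom between the 2 libraries of a group. Each was counted as 1 sample, though this spread does not show that they came from separate animals or cultures.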

How the data were processed

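From RNA of the cultures, 8 libraries, 2 per group, were sequenced by the authors as paired ends. The authors aligned the reads with HISAT2 and, per the file headers, counted exonic reads of RefSeq genes (mm10) with HOMER, on both strands and with 1 transcript per gene. The deposited values are FPKM, reads scaled by transcript length and by the library total. The versions of both tools are not given in the sources used here. Counting on both strands lets overlapping genes share reads.

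Reads were recovered from FPKM and transcript length, and came out whole within 0.1 read for 100% of the genes checked, with library totals of 27284657 to 46171828. The table held 0 other columns of per-sample values. As FPKM are not counts, log2(FPKM + 1) was fitted with limma 3.58.1 (R 4.3.3, trend on mean level) over all 4 groups at once. The fit took the 11700 genes whose FPKM averaged at least 0.5. The model has 4 residual degrees of freedom, and tests were two-sided with Benjamini-Hochberg adjustment over all genes tested. Simulated libraries with known changes served to check the fit.

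The members and gene lists were chosen with earlier results of these data known. Genes named beside the members are those called in a PRDX1 comparison, up to the 4 largest changes per list, 8 defining neutrophil genes and the 5 genes most like Saa3; others named among those at or near 0, and Cebpb, Mcemp1, Stfa2l1, Siglecf, Pglyrp1, Chil1, Prss57 and Cd209a, were chosen after their values were seen. Promoters came from RefSeq (GRCm38.p6, the assembly of mm10), and the annotation of overlaps from GENCODE. Alternatives were another pseudocount, other filters, quantile and upper quartile scaling, voom on recovered reads, a replicate block and leaving out each library.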

Additional observations from a re-analysis of the deposited data

Results flagged for a closer look

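For 3 of the 8 genes tested the effect of PRDX1 differed between cells with and without RANKL in the test of the interaction, against 8.85% of all genes. The log2 change by PRDX1 with RANKL minus that without was -1.39 for Saa3 (adjusted p = 0.00252 with limma), -0.95 for S100a8 (adjusted p = 0.00800) and -0.78 for S100a9 (adjusted p = 0.0216). Saa3 kept this call under all 15 alternatives. S100a8 lost it in 1 of 15, at an adjusted p of 0.0532 without the filter on low values, and S100a9 in 5 of 15. Without PRDX1 the mean of Saa3 was 3.16 FPKM without and 8.89 with RANKL, and with PRDX1 it was 65.3 and 59.8. With 2 libraries a group, no test for a library far from the others of its group was possible.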

How the results depend on the processing

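With PRDX1 without RANKL the count was 7 of the 8 genes tested, against 5.79% of all genes. It was 4 with a minimum mean of 2 FPKM, a filter that leaves fewer of the 10 genes in the test. For PRDX1 with RANKL, RANKL alone and the interaction, 10.2%, 21.8% and 8.85% of all genes passed. With RANKL alone the count of 2 became 4 by voom on recovered reads and 2 to 4 when 1 library was left out. The interaction count of 3 became 1 without the filter on low values, where more genes enter the adjustment, and 2 to 4 when 1 library was left out. The count for PRDX1 with RANKL was 6, with 4 at the same minimum of 2 FPKM, 7 by voom, 5 to 7 when 1 library was left out, and by adjusted p alone, an alternative chosen after seeing the data, it was 7.

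Of the 584 alternative values of the 10 genes 541 kept their direction and their side of the threshold, 9 lost a call, 9 gained one and 25 changed sign; of the 1268 of other named genes these numbers were 1233, 17, 8 and 10. None of the values that changed sign belonged to a result that had passed the test. Under quantile normalization they were -0.043 for Slpi, -0.059 for S100a8 and -0.043 for Mpo (RANKL with PRDX1), -0.0068 for Hp and -0.044 for Ngp (RANKL without PRDX1), -0.084 for Cd163 (PRDX1 with RANKL) and -0.039 for Ocstamp (PRDX1 without RANKL). Under upper quartile scaling they were -0.0034 for Ngp (RANKL without PRDX1), -0.0037 for Mpo (RANKL with PRDX1) and 0.0039 for Cebpe (PRDX1 with RANKL), and by voom 0.044 for Ngp (RANKL with PRDX1). Leaving out 1 library gave -0.47 to 0.087 for the interaction of Lcn2, and for RANKL with PRDX1 -0.054 to 0.12 for Slpi, -0.40 to 0.092 for Hp, -0.012 to 0.058 for S100a8, -0.35 to 0.30 for Ngp and -0.16 to 0.18 for Mpo. For RANKL without PRDX1 it gave -0.080 to 0.29 for Hp and -0.011 to 0.046 for Ngp, for the interaction -0.36 to 0.28 for Ngp and -0.054 to 0.28 for Mpo. For PRDX1 without RANKL it gave -0.11 to 0.53 for Ngp, -0.0062 to 0.054 for Steap4, -0.015 to 0.10 for C1qa, -0.0010 to 0.29 for Ctsk and -0.013 to 0.32 for Retnlg, and for PRDX1 with RANKL -0.088 to 0.42 for Ngp, -0.62 to 0.28 for Retnlg and -0.19 to 0.075 for Cebpe. The cause was not tested. By voom on recovered reads, the log2 changes by PRDX1 without and with RANKL were 3.21 and 1.86 for Lcn2, 2.34 and 1.24 for Hp, and 1.32 and 1.63 for Mpo, larger than on the FPKM + 1 scale.

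Libraries with the same replicate number did not deviate together, with correlations of their deviations between groups of 0.0085 to 0.0965. This check and the replicate block used the numbers of the sample titles. The directory numbers in the file header differ from these in the groups without RANKL, and a pairing by the directory numbers was not tested. The replicate block gave 7, 6, 2, 0 and 3 of the 8 genes tested in the order of PRDX1 without and with RANKL, RANKL without and with PRDX1, and the interaction, the same counts as without it. Depth limits Camp and Ltf, and Lcn2, Hp and the primary granule genes in the libraries with few reads.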
